A study of Mus musculus with 2 samples.

Results

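Cd80, Cd86, Cd274, Pdcd1lg2, Icosl, Cd28, Ctla4, Icos, Pdcd1 and Havcr2 are the genes of the B7 ligands and of the CD28-type and related checkpoint receptors, and were taken by symbol from a table of read counts. All 10 were among the 30538 genes of that table. RNA sequencing was done on mouse spleen cells 3 days after intravenous infection with 100000 Listeria monocytogenes, an intracellular bacterium. The cells, about 100000 per sort, were CD11b+, Ly6G- and Ly6C-low, and carry the label of resident splenic macrophages. Each genotype gave 1 library: C57BL/6, the wild type, and Ch25h-/-, in which the gene of cholesterol 25-hydroxylase is disrupted. The labels give neither the age of the mice nor the number behind each library, and there was no uninfected group.

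T cells need a signal beside the antigen receptor, and the B7 and CD28 families carry it. CD80 and CD86 on antigen-presenting cells bind CD28, which promotes activation, and CTLA-4, which restrains it and binds the same ligands more tightly. The ICOS ligand binds ICOS, a costimulator of activated lymphocytes. PD-L1 (gene Cd274) and PD-L2 (gene Pdcd1lg2) bind the inhibitory receptor PD-1 (gene Pdcd1), and interferon-gamma is a known inducer of PD-L1 in many cells, macrophages included. TIM-3 (gene Havcr2) is an inhibitory receptor of another family, found on lymphocytes, dendritic cells and macrophages.

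The libraries held 16957371 gene counts for C57BL/6 and 15986392 for Ch25h-/-. Levels are TMM-scaled CPM, that is counts relative to the scaled size of the library, and ratios are Ch25h-/- over C57BL/6 on the log2 scale with an exact 95% interval. Where values of a gene are given in pairs, C57BL/6 comes first. Neither genotype has a replicate, so intervals cover counting error only and no p-value is given. A gene counted as measured from a mean of 1 CPM, and as called when the ratio was at least 2-fold with an interval on 1 side of a ratio of 1. Ch25h, the targeted gene, had 3 counts in the C57BL/6 library and 0 in the Ch25h-/- library, too few to check the genotype labels. Of the sorting gate, Itgam (CD11b) stood at 706 and 877 CPM, Ly6g at 8 and 41 counts, Ly6c2 at 103 and 173 CPM and Ly6c1 at 3.51 and 3.53 CPM. The macrophage genes Csf1r (324 and 239 CPM) and Adgre1 (39.7 and 23.4 CPM) were present, and so were B cell, dendritic cell and NK (natural killer) cell genes. Summed per kb of exon, 10 NK cell genes stood at 7727 and 12434 CPM per kb and 10 red pulp macrophage genes at 148 and 91.4 CPM per kb. Most of the NK cell sum came from Gzma (3497 and 5242 CPM per kb) and Gzmb (3033 and 5173 CPM per kb).

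The genes of the CD28 ligands CD80 and CD86 and of PD-L1 were lower in the Ch25h-/- library, and Cd28 was the only one of the 10 genes that was called higher. Cd80, Cd86 and Cd274 were lower by 3.34-fold, 3.17-fold and 2.04-fold, and Cd28 was higher by 2.74-fold. The other 6 genes (Pdcd1lg2, Icosl, Ctla4, Icos, Pdcd1 and Havcr2) were not called, with log2 ratios from -0.49 to 0.29. All 10 genes were measured, so none was lost to the filter. Across all measured genes, 691 of 11972 (5.77%) were called lower and 248 (2.07%) higher, against 3 and 1 of these 10. The median log2 ratio of all measured genes was 0.01, with the central 90% of genes between -1.08 and 0.72.

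**Figure D1:**
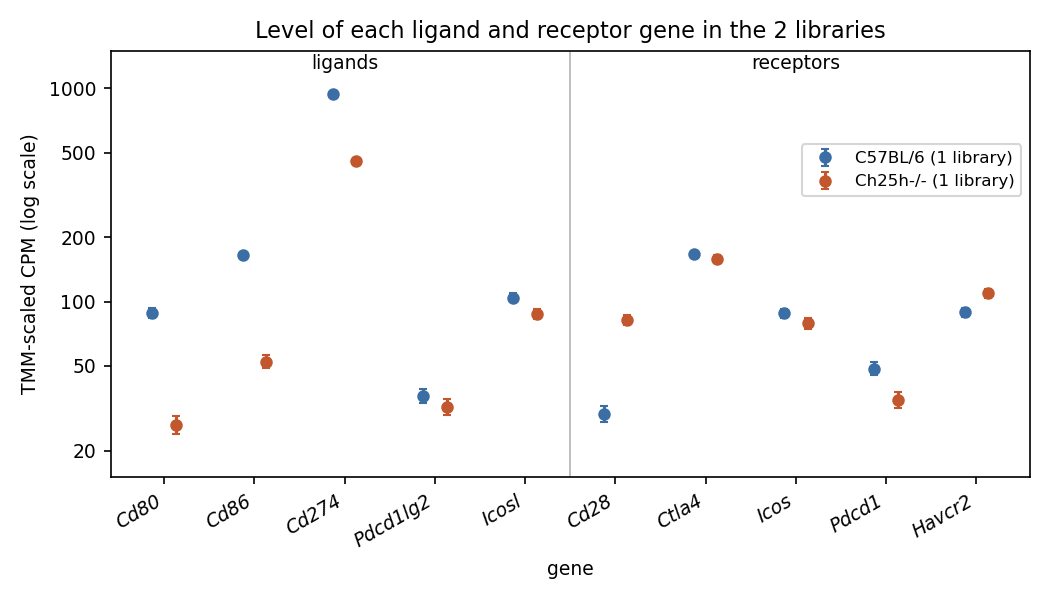
TMM-scaled CPM on a log scale for each gene, 1 point per library, C57BL/6 in blue and Ch25h-/- in orange, with exact 95% Poisson intervals that cover counting error only. The points lie far apart for Cd80, Cd86, Cd274 and Cd28, and close together for Pdcd1lg2, Ctla4 and Icos.

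Cd80 (B7-1, ENSMUSG00000075122, GRCm38 chromosome 16, 38455561 to 38496335, plus strand) had 1516 counts (88.6 CPM) in the C57BL/6 library and 420 counts (26.5 CPM) in the Ch25h-/- library. Its log2 ratio was -1.74 (interval -1.90 to -1.58), lower than that of all but 1.64% of measured genes. Cd86 (B7-2, ENSMUSG00000022901, chromosome 16, 36603869 to 36666081, minus strand) had 2832 counts (166 CPM) and 827 counts (52.2 CPM), and its log2 ratio was -1.66 (interval -1.78 to -1.55). The difference of the log2 ratios of these alternative CD28 and CTLA-4 ligands was -0.08, with an interval from -0.27 to 0.12 that holds 0. Cd80 made up 34.9% of the counts of the pair in C57BL/6 (exact binomial interval 33.4 to 36.3%) and 33.7% in Ch25h-/- (31.1 to 36.4%). The genes lie 1789.5 kb apart, on opposite strands.

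Cd274 (ENSMUSG00000016496, chromosome 19, 29367455 to 29388095, plus strand) was the most abundant of the 10 genes in both libraries. It had 16016 counts (936 CPM) in C57BL/6, above 99.4% of measured genes, and 7263 counts (458 CPM) in Ch25h-/-, still above 97.3%. The log2 ratio was -1.03 (interval -1.07 to -0.99), so the call rests close to the 2-fold line and its interval reaches past it. An annotated antisense gene, which is not among the rows of the table, overlaps exons of Cd274, and the strand setting of the counting is not given in the sources used here. The decrease of Cd274 was smaller than that of Cd80, by 0.71 on the log2 scale (interval of the difference, Cd80 minus Cd274, -0.88 to -0.55), and smaller than that of Cd86 (difference -0.64, interval -0.76 to -0.52).

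Pdcd1lg2 (ENSMUSG00000016498, chromosome 19, 29410919 to 29471161, plus strand) starts 22.8 kb past the end of Cd274. It had 618 counts (36.1 CPM) in C57BL/6 and 507 counts (32.0 CPM) in Ch25h-/-. The log2 ratio of -0.17 (interval -0.35 to -0.003) was not called, and its interval ends just under 0. The log2 ratios of the neighbouring PD-1 ligand genes differed by -0.86 for Cd274 minus Pdcd1lg2 (interval -1.03 to -0.68). Cd274 took 96.3% of the counts of this pair in C57BL/6 (exact binomial interval 96.0 to 96.6%) and 93.5% in Ch25h-/- (92.9 to 94.0%). Icosl (ENSMUSG00000000732, chromosome 10, 78069302 to 78083913, plus strand) had 1783 counts (104 CPM) and 1390 counts (87.7 CPM), a log2 ratio of -0.25 (interval -0.35 to -0.15). It was not called, and it stood apart from Cd86, with a difference of -1.42 for Cd86 minus Icosl (interval -1.57 to -1.26).

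**Figure D2:**
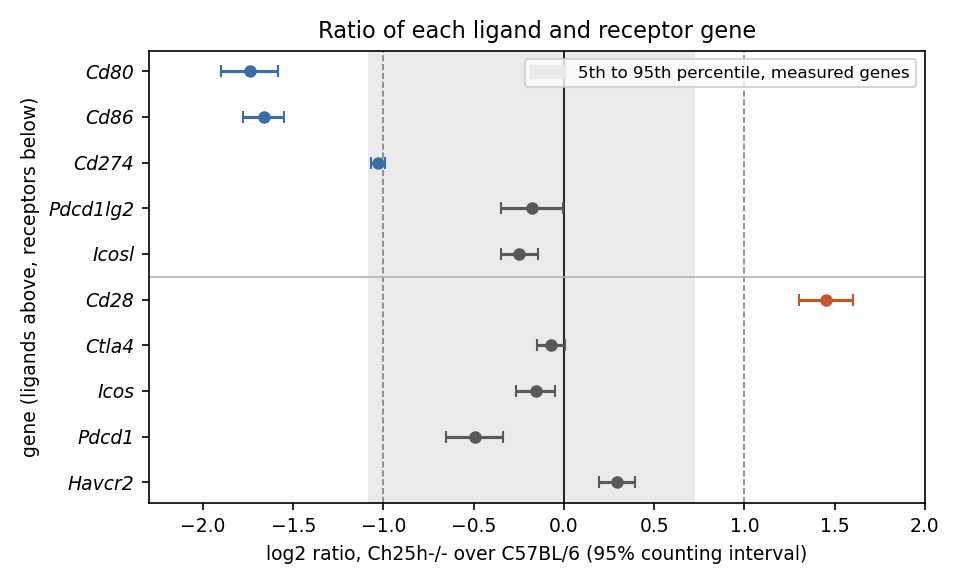
Log2 ratio of Ch25h-/- over C57BL/6 for each gene with its exact 95% counting interval, called genes in blue (lower) or orange (higher), others in grey. Dashed lines mark 2-fold and the grey band holds the central 90% of measured genes; Cd80, Cd86 and Cd28 lie outside the band, and Cd274 lies just inside it at -1.03.

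RefSeq promoter windows (GRCm38.p6, 250 bases before to 50 after the annotated start) were found for 7 of the 10 genes, and not for Cd86, Cd28 or Icos. The start is that of RefSeq, whereas the gene positions given with each gene come from GENCODE. For Cd80 and Ctla4 these starts lie far apart, and the windows lie inside the GENCODE spans of the genes. Starts of Cd274, Icosl and Havcr2 also differ, by much shorter distances. The 3 windows below are shown because Cd80 and Cd274 were called lower together, while Pdcd1lg2, next to Cd274, was not. They lie at chr16:38458683-38458982 (Cd80), chr19:29367188-29367487 (Cd274) and chr19:29410669-29410968 (Pdcd1lg2), all on the plus strand. Capitals mark matches of the motifs named after them.
Cd80: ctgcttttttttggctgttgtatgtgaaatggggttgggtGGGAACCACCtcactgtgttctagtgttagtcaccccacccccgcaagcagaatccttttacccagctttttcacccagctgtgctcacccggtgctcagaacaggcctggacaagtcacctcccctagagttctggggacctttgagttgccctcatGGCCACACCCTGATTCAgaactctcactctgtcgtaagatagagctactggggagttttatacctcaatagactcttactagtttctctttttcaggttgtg
Cd274: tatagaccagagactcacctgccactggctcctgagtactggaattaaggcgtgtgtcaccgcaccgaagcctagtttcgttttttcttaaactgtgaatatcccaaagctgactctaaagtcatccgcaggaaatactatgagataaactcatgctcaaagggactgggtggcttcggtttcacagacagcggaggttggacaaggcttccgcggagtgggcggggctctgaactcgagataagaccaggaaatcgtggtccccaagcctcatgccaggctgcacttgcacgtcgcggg
Pdcd1lg2: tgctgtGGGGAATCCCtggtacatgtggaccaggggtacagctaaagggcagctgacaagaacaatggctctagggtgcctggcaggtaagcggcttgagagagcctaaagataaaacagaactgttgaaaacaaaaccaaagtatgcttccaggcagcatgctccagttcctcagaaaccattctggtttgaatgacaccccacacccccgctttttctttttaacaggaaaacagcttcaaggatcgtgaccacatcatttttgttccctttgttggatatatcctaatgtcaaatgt

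Both strands of each window were searched for 4 motifs. These included a STAT site called GAS (TTCNNNGAA) and an IRF element (GAAA, any 2 bases, GAAA). The others were a kB-like site (GGG, any 5 bases, CC) and an AP-1-like site (TGANTCA, where N is any base). The Cd80 window held kB-like matches that begin at -210 and -52 from the RefSeq start site. It also held an AP-1-like match at -42, which follows the second kB-like match without a gap. The Pdcd1lg2 window held 1 kB-like match, at -244, and the Cd274 window held none of the 4 motifs. Of the windows not shown, that of Icosl held kB-like matches at -111 and -71, and those of Ctla4 and Pdcd1 held none. That of Havcr2 held an AP-1-like match at -200. In Cd80 and Havcr2 alike, the AP-1-like match reads TGATTCA. A kB-like match occurs in 50.8% of the 32851 RefSeq windows and an AP-1-like match in 7.81%. A GAS match occurs in 8.30% and an IRF element in 3.44%. A match describes letters only, and the absence of one says nothing beyond these windows.

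Cd28 (ENSMUSG00000026012, chromosome 1, 60716800 to 60773359, plus strand) was the receptor gene that differed most. It had 511 counts (29.9 CPM) in the C57BL/6 library and 1295 counts (81.7 CPM) in the Ch25h-/- library. The log2 ratio was 1.45, with an interval from 1.30 to 1.60, and exceeded that of 99.4% of measured genes. Ctla4 (ENSMUSG00000026011, chromosome 1, 60887000 to 60915832, plus strand), the gene of the opposing receptor, had 2848 counts (166 CPM) and 2512 counts (159 CPM), a log2 ratio of -0.07 (interval -0.15 to 0.01). The log2 ratios of Cd28 and Ctla4 differed by 1.52 (interval 1.35 to 1.69). Of the counts of these 2 genes, Cd28 held 15.2% in C57BL/6 (exact binomial interval 14.0 to 16.5%) and 34.0% in Ch25h-/- (32.5 to 35.5%).

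Icos (ENSMUSG00000026009, chromosome 1, 60977927 to 61000320, plus strand) is the third gene of this cluster. It had 1507 counts (88.1 CPM) and 1252 counts (79.0 CPM), a log2 ratio of -0.16 (interval -0.27 to -0.05), and was not called. Cd28 exceeded it by 1.61 on the log2 scale (interval 1.42 to 1.80). Cd28 held 25.3% of the counts of that pair in C57BL/6 (exact binomial interval 23.4 to 27.3%) and 50.8% in Ch25h-/- (48.9 to 52.8%).

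Pdcd1, the PD-1 gene (ENSMUSG00000026285, chromosome 1, 94038305 to 94052553, minus strand), had 830 counts (48.5 CPM) in C57BL/6 and 546 counts (34.5 CPM) in Ch25h-/-. Its log2 ratio of -0.49 (interval -0.65 to -0.34) did not reach 2-fold. Havcr2, the TIM-3 gene (ENSMUSG00000020399, chromosome 11, 46454935 to 46481255, plus strand), had 1524 counts (89.1 CPM) and 1729 counts (109 CPM), a log2 ratio of 0.29 (interval 0.19 to 0.39), also not called. The 5 receptor genes had no common direction, with 2 ratios above 0 and 3 below, and a median log2 ratio of -0.07. The 5 ligand genes all had ratios below 0, with a median of -1.03. For all measured genes, 48.2% of ratios were below 0.

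Levels of different genes were set side by side per kb of annotated exon. Among the ligands in the C57BL/6 library, Cd274 led with 258 CPM per kb. Cd86 (45.2), Cd80 (23.9), Icosl (22.6) and Pdcd1lg2 (18.4 CPM per kb) came after it, and the counting intervals of Cd80 and Icosl overlapped. In the Ch25h-/- library Cd274 had 127 CPM per kb, and then came Icosl (19.0), Pdcd1lg2 (16.3), Cd86 (14.3) and Cd80 (7.16 CPM per kb), with overlapping intervals for Pdcd1lg2 and Cd86. Cd80, the third of the ligand genes in C57BL/6, was the last in Ch25h-/-. The order of the lower ranks depends on the length used. With the longest annotated transcript, Icosl (37.0) came before Cd80 (27.9 CPM per kb) in C57BL/6, and Cd86 (20.6) before Pdcd1lg2 (18.5 CPM per kb) in Ch25h-/-.

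The receptor genes kept one order in both libraries. Ctla4 (71.4 and 68.1 CPM per kb) was first, then Havcr2 (32.7 and 40.1), Icos (25.7 and 23.0), Pdcd1 (25.1 and 17.9) and Cd28 (4.88 and 13.4 CPM per kb). Icos and Pdcd1 had overlapping intervals in C57BL/6. With the longest transcript, Cd28 (18.8) came before Pdcd1 (17.9 CPM per kb) in the Ch25h-/- library. Summed per kb, the 5 ligand genes went from 369 to 183 CPM per kb and the 5 receptor genes from 160 to 162. The ratio of the ligand sum to the receptor sum was 2.31 in C57BL/6 and 1.13 in Ch25h-/-. Cd274 alone made up 70.1% of the ligand sum in C57BL/6 and 69.1% in Ch25h-/-. Within the receptor sum, Cd28 and Havcr2 were higher in Ch25h-/- and Ctla4, Icos and Pdcd1 lower. In bulk RNA, fewer cells of a type and less RNA per cell cannot be told apart.

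Of 9 mature dendritic cell genes, 8 were called lower (Ccr7, Fscn1, Ccl22, Ccl17, Cacnb3, Socs2, Cd83 and Il4i1), with a median log2 ratio of -1.80. Their summed level was 2409 CPM in C57BL/6 and 723 CPM in Ch25h-/-. Of 11 conventional dendritic cell genes 8 were measured, 5 of them called lower (Flt3, Zbtb46, Batf3, Irf4 and Esam), with a median of -1.35. Their summed level was 2374 and 2650 CPM, most of it Irf8 (1428 and 2007 CPM, log2 ratio 0.49), and Itgax, the CD11c gene, stood at 272 and 336 CPM (0.30). Xcr1 (0 and 6 counts) and Clec9a (5 and 13 counts), markers of cross-presenting dendritic cells, were near 0. The part of these cell types in the ligand values was not tested.

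Set against single genes, Cd80 and Cd86 differed from Flt3, the gene of a dendritic cell growth factor receptor, by -0.12 (interval -0.32 to 0.08) and -0.04 (interval -0.21 to 0.13). Both had lower log2 ratios than Csf1r, the macrophage growth factor receptor gene, with differences of -1.30 (interval -1.47 to -1.13) and -1.23 (interval -1.35 to -1.10). Both had higher log2 ratios than Fscn1, the gene of an actin bundler of mature dendritic cells, with differences of 0.38 (interval 0.21 to 0.55) and 0.46 (interval 0.33 to 0.59). Cd274 lay close to the MHC class II gene H2-Aa (992 and 462 CPM), at a difference of 0.07 (interval 0.01 to 0.13). Pdcd1lg2 and Icosl lay nearest to Csf1r, at differences of 0.26 (interval 0.08 to 0.45) and 0.19 (interval 0.07 to 0.31). In all, 44 such differences were computed, 9 of them between the 10 genes, and their intervals are not adjusted for that number.

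Ratios below 0 were seen for 9 of 10 red pulp macrophage genes, 10 of 10 B cell genes and 6 of 8 Ly6C-low monocyte genes. Of the macrophage genes, 3 were called lower (Spic, Cd163 and C1qa; median -0.75, summed 520 and 360 CPM). Of the B cell genes, 2 were called lower (Ebf1 and Fcrla; median -0.68, summed 1508 and 936 CPM). Of the Ly6C-low monocyte genes, Fcgr4 was called lower (median -0.40, summed 1911 and 2197 CPM, most of it Itgal at 1341 and 1784 CPM). Itgal (0.41) and Cx3cr1 (31.9 and 49.2 CPM, 0.62) were the genes of that list with ratios above 0. Of 5 Ly6C-high monocyte genes, Ccr2 and Vcan were called higher (median 0.75, summed 1346 and 2075 CPM), and 5 of 9 neutrophil genes were called higher (Ly6g, Mmp9, Ltf, Ngp and Camp; median 1.004, summed 1037 and 1936 CPM). The part of these cells in the ligand values was likewise not tested.

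**Figure D3:**
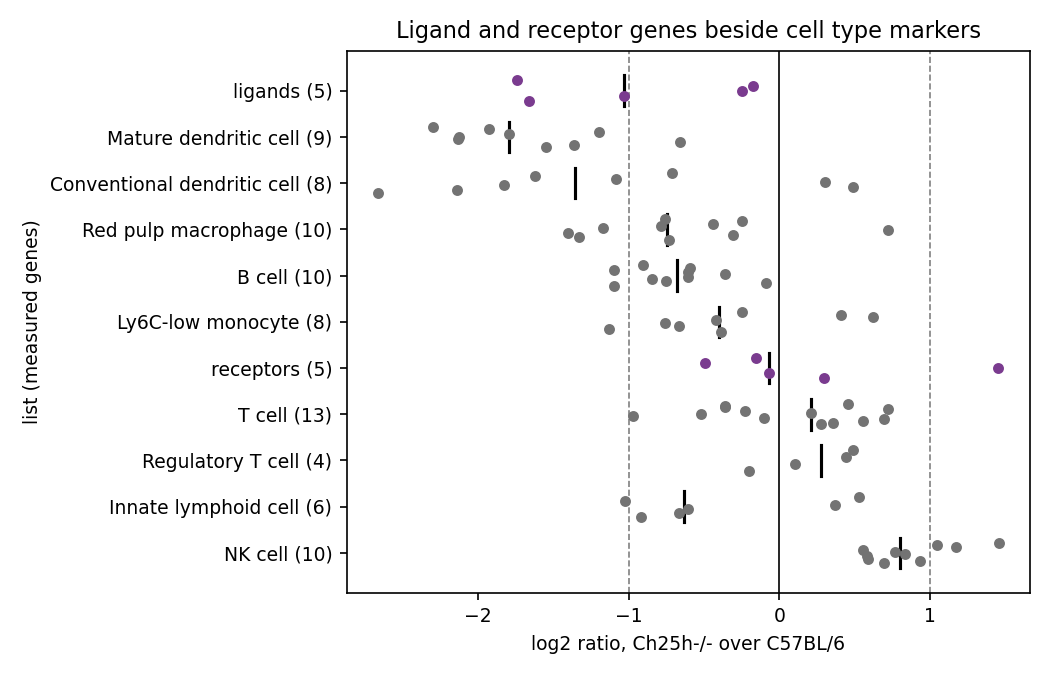
Log2 ratio of Ch25h-/- over C57BL/6 for each measured gene (1 point per gene), with ligand and receptor genes in purple, cell type markers in grey, and black bars at the median of each list. Dashed lines mark 2-fold. Neutrophil genes (median 1.004), Ly6C-high monocyte genes (0.75), exhausted or follicular T cell genes (-0.39) and the sorting gate are not drawn. The medians are -1.80 for mature dendritic cell genes, -1.03 for ligand genes, -0.07 for receptor genes and 0.80 for NK cell genes. The points of the ligand genes overlap those of the mature dendritic cell genes and those of the receptor genes. Receptor genes reach the range of the NK cell genes only with Cd28 (1.45), beside Ncr1, the highest of the NK cell genes.

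Of the T cell receptor complex, 3 genes were scarce and the zeta chain gene Cd247, which NK cells also use, was not (116 and 159 CPM). Cd3e stood at 6.49 and 7.51 CPM, Cd3d at 3.799 and 4.61 CPM and Cd3g at 6.72 and 5.74 CPM. Cd4 stood at 11.6 and 8.08 CPM, Cd8a at 4.21 and 6.82 CPM, and Foxp3, the regulatory T cell factor, at 3.39 and 4.61 CPM. Per kb of exon, Ctla4 was 44.9 times as high as Cd3e in the C57BL/6 library and 37.0 times in the Ch25h-/- library. Icos was 16.1 and 12.5 times as high, Pdcd1 15.8 and 9.70 times, Havcr2 20.6 and 21.8 times, and Cd28 3.07 and 7.25 times. None of 13 T cell genes was called, with a median log2 ratio of 0.21 and a summed level of 878 and 1185 CPM, most of it Thy1 (630 and 924 CPM). None of 4 measured regulatory T cell genes was called either (median 0.27, summed level of the list 606 and 654 CPM, most of it Il2ra).

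All 10 NK cell genes had ratios above 0, 3 of them called higher (Ncr1, Klrd1 and Klre1), with a median of 0.80 and a summed level of 11058 and 17916 CPM. Cd28 differed from the NK cell receptor gene Ncr1 (156 and 429 CPM) by -0.00 (interval -0.17 to 0.16). Ncr1 had the highest log2 ratio of the NK cell genes, which ran from 0.55 to 1.46. From Gzmb, the granzyme B gene, Cd28 differed by 0.68 (interval 0.53 to 0.83). The other 4 receptor genes all had lower ratios than Ncr1, with differences from -1.95 for Pdcd1 to -1.16 for Havcr2. They also had lower ratios than Gzmb, with differences from -1.26 for Pdcd1 to -0.48 for Havcr2. Among 6 genes of innate lymphoid cells, Il7r was called lower and none higher (median -0.64, summed 445 and 328 CPM). The part of NK or innate lymphoid cells in the receptor values was not tested.

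Genes beside these loci were examined, taking up to 3 protein-coding genes to each side. Raph1, Abi2 and Cyp20a1, which precede Cd28, had log2 ratios of 0.74, 0.67 and 0.42 and were not called. Past Icos, Pard3b stood at -0.29 (62 and 47 counts). Around Cd274, the adjacent Plgrkt stood at -0.14, Ric1, past Pdcd1lg2, at -0.43, and Ermp1 at 0.65. Beside Cd80, Adprh stood at -0.16, Timmdc1 at 0.76, Poglut1 at -0.92 and Tmem39a at -0.71, none of them called, and Pla1a was called lower (25.7 and 5.49 CPM, -2.22). Of 29 measured neighbours of the 10 genes, 4 were called lower (Pla1a, Eaf2 near Cd86, Aire near Icosl, Nrp2 in the region past Icos). Slco4c1, beyond Pdcd1, was called higher. Over all measured genes, 5.77% were called lower and 2.07% higher. Aire (34 and 13 counts) and Slco4c1 (16 and 40 counts) were called on few reads. The median log2 ratio of the 29 neighbours was -0.16.

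**Figure D4:**
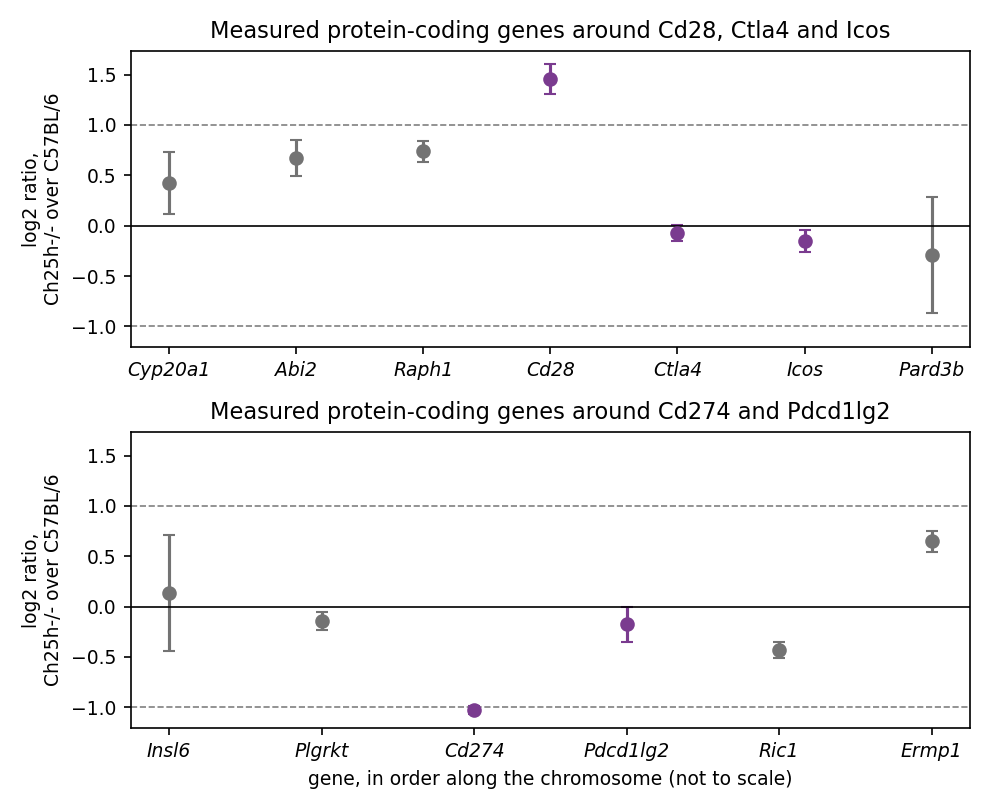
Log2 ratio of Ch25h-/- over C57BL/6 with exact 95% counting intervals for the measured protein-coding genes around the Cd28 cluster (top) and the PD-1 ligand genes (bottom), in chromosomal order and not to scale, ligand and receptor genes in purple. Cd28 (1.45) and Cd274 (-1.03) each stand beyond the dashed 2-fold line, which the interval of Cd274 touches, and the genes next to them do not.

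Other genes of the B7 and checkpoint system were counted from lists by role. Of 9 further B7 and butyrophilin-type genes only Vsir, the gene of the inhibitory ligand VISTA (192 and 193 CPM, log2 ratio 0.00), and Btnl2 (8.24 and 4.17 CPM, -0.98) were measured, and neither was called. Cd276 had 15 and 5 counts, and Vtcn1 had 0 in both libraries. None of 10 further inhibitory or costimulatory receptors of lymphocytes was called, and 7 of them had ratios above 0 (median 0.25). Tigit stood at 177 and 220 CPM (0.31), Lag3 at 92.9 and 120 CPM (0.37), Cd226 at 8.65 and 16.3 CPM (0.92), and Cd244, the most abundant of the list, at 191 and 283 CPM (0.57). Btla, a CD28-family relative that binds HVEM, stood at 200 and 114 CPM (-0.82).

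Of 6 measured genes on a list of nectin-type ligands, 3 were called lower, and the median was -1.06. The list also holds Crtam, the gene of a receptor (10.3 and 9.66 CPM, log2 ratio -0.09). Pvr, the gene of the main TIGIT and CD226 ligand, had 65.2 and 29.2 CPM (log2 ratio -1.16, interval -1.32 to -1.003), Nectin1 had 34.5 and 10.9 CPM (-1.66), and Cadm1 had 48 and 18 counts (-1.30). Of 5 measured genes of the TIM family, TIM-3 ligands and a TIM-3 adaptor, Timd4, a receptor for phosphatidylserine, was called lower (20.98 and 5.24 CPM, log2 ratio -2.00, interval -2.36 to -1.65). Lgals9, the gene of the TIM-3 ligand galectin-9, stood at 153 and 207 CPM (0.44), and Bag6, the most abundant, at 256 and 240 CPM (-0.09).

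Genes listed around the handling of B7 and PD-1 ligands went both ways, 4 above and 4 below 0. The list was drawn broadly and includes Lrba (log2 ratio -0.07) and Ciita (-0.37), so it does not hold only genes that act on the ligands. Rgmb, a PD-L2 binding partner, was the 1 of 8 called (9.76 and 3.22 CPM, log2 ratio -1.60, interval -2.08 to -1.14). March1, the ubiquitin ligase that removes CD86 and MHC class II from the surface, stood at 93.6 and 63.8 CPM (-0.55). Cmtm6, which protects PD-L1 from degradation, stood at 126 and 137 CPM (0.11), and Sppl2a, the most abundant, at 230 and 249 CPM (0.11). None of 15 measured genes of CD28-type signalling was called (median 0.09). The T cell and NK cell kinase genes Lck (186 and 320 CPM, 0.78) and Prkcq (135 and 224 CPM, 0.73) had the largest ratios. Pik3cd, the most abundant, stood at 580 and 590 CPM (0.02), and Il2 had 0 counts in both libraries.

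None of 14 regulators of the ligand genes was called, and 11 had ratios below 0 (median -0.23). Ifng stood at 1094 and 1540 CPM (log2 ratio 0.49). Ifngr2, a chain of its receptor, stood at 67.4 and 35.7 CPM (-0.92), Jak2 at 475 and 340 CPM (-0.49) and Irf1 at 668 and 563 CPM (-0.25). Of the NF-kB subunits, Rel stood at 223 and 113 CPM (-0.97), Relb, which is also on the mature dendritic cell list, at 250 and 158 CPM (-0.66) and Rela at 205 and 177 CPM (-0.21). Stat3, the most abundant of the list, stood at 1544 and 1206 CPM (-0.36). The part of these regulators in the ligand values was not tested.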

How the data were processed

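The authors' deposited table holds raw read counts per gene for 1 library per genotype. Per the submitters' processing notes, the tools were GSNAP 2018-07-04, edgeR 3.26.8, FastQC 0.11.9, Subread 1.5.2 and featureCounts, and the builds GRCm38 and mm10, and per the labels' protocols RNA was extracted with TRIzol and libraries were made with a KAPA RNA HyperPrep kit. The strand setting, the handling of reads with several matches and the pooling of mice are not given in the sources used here.

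Counts were scaled with TMM factors (1.01 and 0.991) from edgeR 4.0.16 in R 4.3.3. Ratios used no prior count, and a count of 0 was set to a floor of 3 counts. Intervals of ratios are Clopper-Pearson intervals of 1 library's share of both counts, and differences between genes have exact conditional intervals of an odds ratio (scipy 1.17.1, numpy 2.4.6, pandas 2.3.3, Python 3.11.15). They cover counting error only, and reads counted without molecular identifiers need not be independent molecules. Positions and exon lengths (union of exons) come from GENCODE M21, which holds 30126 of the 30538 gene IDs, and promoters from RefSeq. The calculation was checked on simulated counts. Alternatives were DESeq2 1.42.0 size factors, other scalings, filters, a prior count, a stricter interval and another length. Named genes are the 10 genes, called and most abundant genes of each list, called neighbours and comparison genes set with the design; others named were chosen after their values were seen. The genes and lists were chosen with earlier results of these data known. A few listed genes are not reported here. A planned comparison of protein sequences was not made. Figures were drawn with matplotlib 3.10.9.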

Additional observations from a re-analysis of the deposited data

How the results depend on the processing

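With 1 library per genotype nothing here separates genotype from differences between mice, sorts or library preparations, and no library could be left out. No paired analysis was possible because each genotype has 1 library. The log2 ratios of the 10 genes were recomputed over 4 other scalings and a prior count of 2. All 50 kept their side of 0 and their call, and the largest move was 0.03. Each scaling moves every gene by the same amount, so these are not 50 separate checks. Moves of this size could not bring any of the 10 ratios across 0. Cd80, Cd86, Cd274 and Cd28 stayed called under both other filters, but this was fixed in advance. A filter changes no ratio, and their mean levels, from 55.8 to 697 CPM, lie above both cut-offs. An interval wholly beyond 2-fold left 2 of the 3 lower calls, without Cd274. Over all genes, 248 were called higher and 691 lower. These numbers became 120 and 347 where a mean of 5 CPM was asked for, 435 and 1031 where 1 count was enough, and 67 and 318 under the stricter interval. They ranged from 222 to 252 and from 647 to 722 under the 5 remaining alternatives. Of 20 levels per kb, 14 moved beyond counting error with the longest transcript.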

Other observations

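Costimulator genes of the TNF type act beside the B7 family. Of 6 measured ligand-side genes 2 were called lower, and 2 ratios lay above and 4 below 0 (median -0.35). Cd40, through which T cells activate antigen-presenting cells, stood at 103 CPM in C57BL/6 and 47.2 CPM in Ch25h-/- (log2 ratio -1.12, interval -1.24 to -0.99). Cd70, the ligand gene of CD27, had 39 and 3 counts, and its log2 ratio of -3.59 has a wide interval (-5.93 to -1.94). Tnfsf4, the OX40 ligand gene, stood at 32.1 and 31.8 CPM. Of 6 measured receptor-side genes none was called, and again 2 ratios lay above and 4 below 0 (median -0.22). Tnfrsf9, the 4-1BB gene and the most abundant of them, stood at 449 and 671 CPM (0.58), Cd27 at 27.6 and 46.5 CPM (0.75) and Tnfrsf4, the OX40 gene, at 13.7 and 8.40 CPM (-0.71). Whether ligand and receptor genes differ was not tested.

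Genes linked to exhausted or follicular T cells, which often carry PD-1, were not called in any of 5 cases (median -0.39). Tox stood at 9.35 and 15.5 CPM (log2 ratio 0.73), Entpd1 at 232 and 336 CPM (0.54), Cxcr5 at 107 and 64.2 CPM (-0.73) and Bcl6 at 102 and 74.1 CPM (-0.45). Cxcr5 and Bcl6 are also expressed by B cells, whose genes had a median of -0.68.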
